A study of Mus musculus with 9 samples.

Results

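The collecting duct is the last segment of the nephron, and 10 genes that mark its cells were followed in mouse kidney cortex: Aqp2, Aqp3, Aqp4, Avpr2 and Fxyd4 for principal cells and Slc4a1, Slc26a4, Atp6v1b1, Atp6v0d2 and Foxi1 for intercalated cells. They were chosen by name, and all 10 have a probe set that maps to 1 gene symbol among the 22180 genes so covered. All 10 also passed the filter on dim genes that left 17729 genes to test. RNA came from renal cortex. Every group shares the C57BLKS/J strain, male sex and an age of 20 weeks, and the 9 Affymetrix arrays fall into 3 groups of 3, each array labelled as a biological replicate. The db/m group was heterozygous for the leptin receptor mutation and lean. The db/db group was homozygous, obese and diabetic, and was given saline. The db/db+TSF group had the same genotype and was gavaged with TSF (Tang-shen Formula, from traditional Chinese medicine) at 2.4 g/kg/day for 12 weeks. The treatment notes give 9 animals for each db/db group and do not say how the 3 on arrays were picked or whether db/m mice were gavaged.

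Principal cells reabsorb water and sodium. Vasopressin binds the V2 receptor (Avpr2) on their blood side, cAMP rises, and aquaporin-2 moves to the urine side and is made in larger amount, while aquaporin-3 and aquaporin-4 let water out on the blood side. Intercalated cells handle acid and base: type A cells secrete acid with a vacuolar proton pump (V-ATPase) and return bicarbonate through the anion exchanger Slc4a1, type B cells secrete bicarbonate through pendrin (Slc26a4), and the forkhead factor Foxi1 is needed for both to form. In diabetes with high urine flow the collecting duct is the segment where the final urine concentration is set.

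The promoters of a principal and an intercalated cell gene are shown because the factors known to act on these cells have short recognition letters that can be looked for in them. RefSeq promoter sequence (GRCm38.p6, 250 bases before to 50 bases after the start site) was at hand for 7 of the 10 members. Capitals mark matches on either strand. The letters TGACG are the short form of the cAMP response element, through which cAMP acts on transcription. GATA factors, of which principal cells make Gata3, were looked for by the letters AGATAA. Forkhead factors, the family that Foxi1 belongs to, were looked for by the core letters TGTTTA. The Aqp2 promoter lies at chr15:99578806-99579105 on the plus strand and the Atp6v1b1 promoter at chr6:83742767-83743066 on the plus strand, each printed 5′ to 3′.
Aqp2: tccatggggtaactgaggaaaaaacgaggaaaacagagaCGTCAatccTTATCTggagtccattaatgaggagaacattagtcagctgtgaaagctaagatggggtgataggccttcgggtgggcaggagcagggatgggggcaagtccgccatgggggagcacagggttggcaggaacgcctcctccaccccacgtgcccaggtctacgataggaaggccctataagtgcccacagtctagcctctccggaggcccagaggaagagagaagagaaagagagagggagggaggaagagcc
Atp6v1b1: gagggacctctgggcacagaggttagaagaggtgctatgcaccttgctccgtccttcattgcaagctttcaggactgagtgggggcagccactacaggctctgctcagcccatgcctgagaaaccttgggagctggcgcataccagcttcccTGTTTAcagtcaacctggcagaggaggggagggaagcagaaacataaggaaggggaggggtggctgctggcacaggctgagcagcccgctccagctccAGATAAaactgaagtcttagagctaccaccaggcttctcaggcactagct

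In Aqp2 the short cAMP element begins at -211 and the GATA letters at -202 from the start site, both on the minus strand and not overlapping. In Atp6v1b1 the forkhead letters begin at -98 and the GATA letters at 1, both on the plus strand. Avpr2 also held 1 forkhead match, at -131, and the promoters of Aqp3, Fxyd4, Slc26a4 and Foxi1 held none of these letters in this window. Among all 32851 promoters of this length 20.8% held the short cAMP element, 11.2% the GATA letters, 13.4% the forkhead letters and 1.79% the full cAMP element TGACGTCA, which none of the 7 member promoters held. A match is a description of the letters and not a binding site.

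Levels are given as log2(intensity + 1) of the authors' deposited values, and a difference is a log2 fold change on that scale from a limma fit with Benjamini-Hochberg adjustment over all 17729 genes. The threshold was an adjusted p of 0.05. Nothing in the labels tells whether the arrays were run together. The p-values rest on the spread between arrays of a group, which holds differences between mice, tissue taken and array runs alike. They would not account for a batch that followed the groups. In whole tissue fewer cells of a type and less RNA per cell cannot be told apart. The tissue check gave the cortex genes Slc34a1 at 12.12 to 12.27 and Lrp2 at 10.99 to 11.29 over the 9 arrays, the thick ascending limb gene Umod at 11.42 to 11.97 and the distal convoluted tubule gene Slc12a3 at 10.63 to 11.30. The inner medulla urea transporter Slc14a2 lay between 4.62 and 6.74, above the array medians of 3.50 to 3.61. Array medians of the intensity lay between 10.3 and 11.2. Among the arrays, db/db replicate 3 stood apart with the neutrophil gene S100a8 at 6.10 against 2.16 to 2.54 elsewhere, and db/db+TSF replicate 2 had the lowest second principal component. Values without one or the other of these arrays are given beside the members they bear on most. Db/m replicate 3 had the lowest first principal component. It held the highest value of 20% and the lowest of 17.9% of all genes tested, the largest shares among the 9 arrays.

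No member passed the threshold in any of the 3 comparisons. In db/db against db/m, which sets diabetic against lean cortex, 7 of 10 members lay above 0 (52.2% of all genes tested), 2 had an unadjusted p under 0.05 (14% of all genes) and 1 had groups that did not overlap, on the higher side (10.4% of all genes; 18.6% in either direction). Of all genes 1.05% passed the threshold there, 0.592% as higher and 0.463% as lower. For the formula, db/db+TSF against db/db, 4 members lay above 0 (43.9% of all genes), 4 had an unadjusted p under 0.05 (11.7%) and 2 did not overlap (20.1%), 1 higher (7.82%) and 1 lower (12.3%). Of all genes 0% passed the threshold in that comparison, and the smallest limma adjusted p was 0.145. Treated against lean mice, db/db+TSF against db/m, gave 5 members above 0 (50% of all genes), 5 with an unadjusted p under 0.05 (17.2%) and 5 that did not overlap (22.1%), 3 higher (9.76%) and 2 lower (12.4%). Of all genes 3.14% passed there, 1.22% as higher and 1.92% as lower. The comparisons share arrays, so their counts are not independent of each other.

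**Figure D1:**
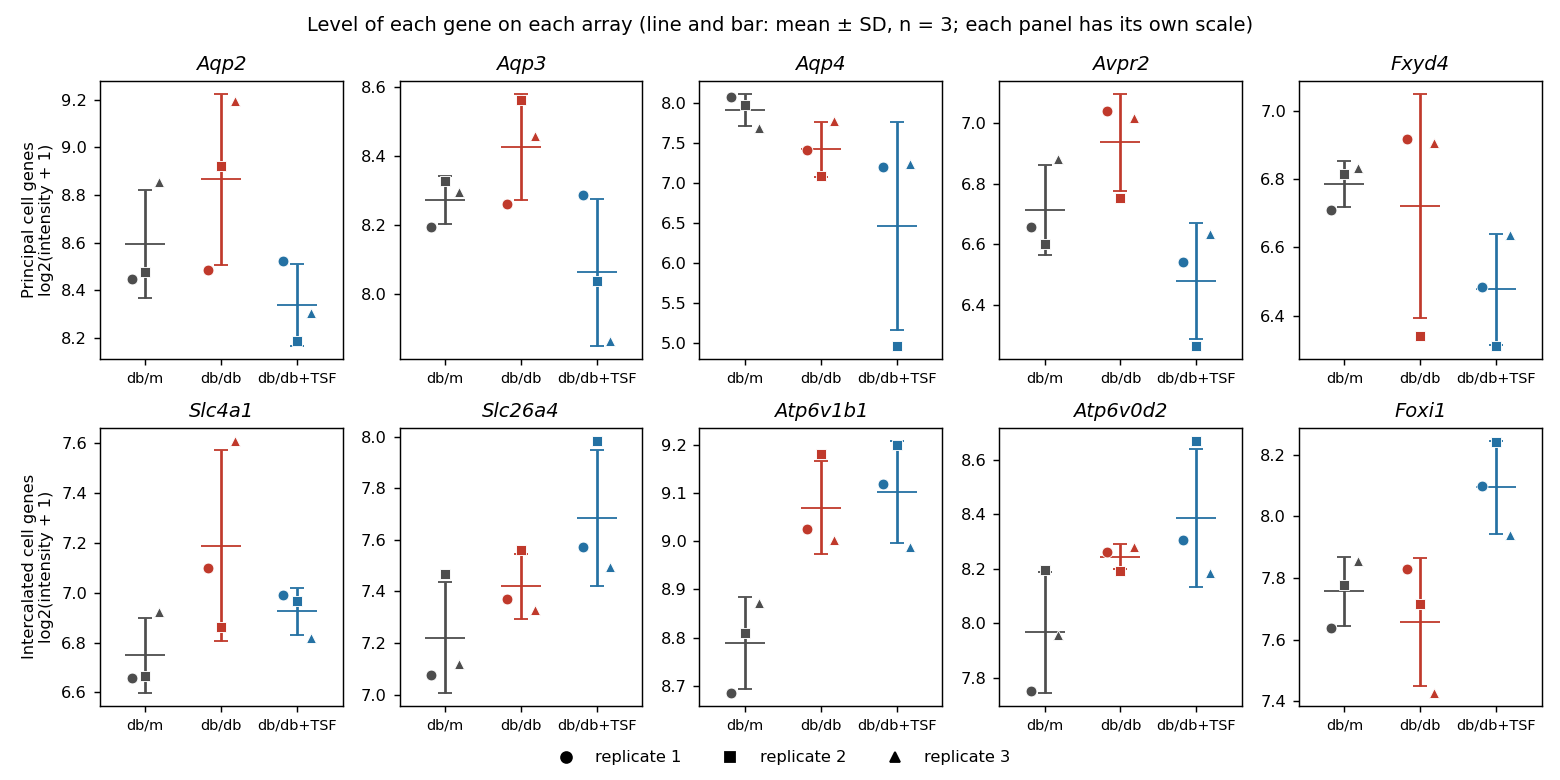
Level of the 10 genes on each of the 9 arrays, as log2(intensity + 1), with the mean and SD of the 3 arrays of a group; marker shape gives the replicate number and each panel has its own scale. Aqp4 on db/db+TSF replicate 2, at 4.97, lies far below the other 8 arrays, and the 3 db/db+TSF arrays lie above all others for Foxi1.

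Among the principal cell genes, Avpr2, the vasopressin V2 receptor, had the clearest separation between treated and untreated diabetic mice. It measured 6.66, 6.60 and 6.88 in db/m replicates 1, 2 and 3, 7.04, 6.75 and 7.01 in db/db, and 6.54, 6.27 and 6.63 in db/db+TSF. Every db/db+TSF array was below every db/db array, while db/m overlapped both groups. The difference of db/db+TSF from db/db was -0.45 (SE 0.13, 95% interval -0.73 to -0.18, n = 3 per group, limma adjusted p = 0.284), and that of db/db from db/m was 0.22 (SE 0.13, limma adjusted p = 0.47). Without db/db+TSF replicate 2, the lowest array, the first was -0.35 (adjusted p = 0.637).

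Aqp2, the vasopressin-regulated water channel of the urine side, followed the same order of group means. Its values were 8.45, 8.47 and 8.85 in db/m, 8.48, 8.92 and 9.20 in db/db, and 8.52, 8.18 and 8.30 in db/db+TSF. The highest array was db/db replicate 3 and the lowest db/db+TSF replicate 2, and the groups overlapped because db/db replicate 1 lay below db/db+TSF replicate 1. The group means were 8.59 ± 0.23 for db/m, 8.87 ± 0.36 for db/db and 8.34 ± 0.17 for db/db+TSF (± SD, n = 3). Treated against untreated db/db differed by -0.53 (SE 0.18, 95% interval -0.92 to -0.14, limma adjusted p = 0.316), by -0.36 (adjusted p = 0.459) without db/db replicate 3, and by -0.45 (adjusted p = 0.665) without db/db+TSF replicate 2. Db/db exceeded db/m by 0.27 (95% interval -0.12 to 0.66, limma adjusted p = 0.531), by 0.11 without db/db replicate 3 and by 0.47 without db/db replicate 1.

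Aqp3, a water and glycerol channel of the blood side, measured 8.19, 8.33 and 8.29 in db/m, 8.26, 8.56 and 8.46 in db/db, and 8.29, 8.04 and 7.87 in db/db+TSF. Its lowest values were db/db+TSF replicates 3 and 2, and replicate 1 of that group lay within the range of the other groups. The difference of db/db+TSF from db/db was -0.36 (SE 0.12, 95% interval -0.63 to -0.10, limma adjusted p = 0.316). Fxyd4, a small regulator of the sodium pump that is known to respond to aldosterone, measured 6.71, 6.82 and 6.83 in db/m, 6.92, 6.34 and 6.90 in db/db, and 6.48, 6.31 and 6.63 in db/db+TSF. All db/db+TSF arrays lay below all db/m arrays (difference -0.31, SE 0.15, limma adjusted p = 0.327), and db/db replicate 2 lay with the treated arrays.

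Aqp4, the other water channel of the blood side, varied most. It measured 8.08, 7.98 and 7.70 in db/m, 7.42, 7.09 and 7.77 in db/db, and 7.20, 4.97 and 7.24 in db/db+TSF. The treated group lay below all db/m arrays, and db/db replicate 3 overlapped db/m. Its SD within groups, 0.79, was larger than that of 99.8% of the genes tested or equal to it, against a median of 0.14 for all genes. Db/db+TSF differed from db/m by -1.45 (SE 0.48, 95% interval -2.51 to -0.40, limma adjusted p = 0.142), from db/db by -0.96 (limma adjusted p = 0.457), and db/db from db/m by -0.49 (limma adjusted p = 0.688). Without db/db+TSF replicate 2 the first difference was -0.70 (adjusted p = 0.111) and the second -0.21 (adjusted p = 0.842).

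The array that set Aqp4 apart was also the lowest for most thick ascending limb genes. It was the lowest for 1 of 6 inner medulla and thin limb genes and for 3 of 10 proximal tubule genes. On db/db+TSF replicate 2, 5 of 7 thick ascending limb genes had their lowest value of the 9 arrays (15.6% of all genes tested), Slc12a1 among them at 9.63. Cryab, a chaperone abundant in the medulla, was at 8.28 there against 9.30 to 9.68 elsewhere. The other 5 tested genes of the inner medulla and thin limb list were not at their lowest there: Slc14a2 (4.88) and Slc14a1 (4.81) lay above db/m replicate 3, Cldn3 (5.89) lay above db/db replicate 2, and Cldn4 (7.12) and S100a4 (3.33) were exceeded on only 1 array each. The 6 tested genes of the inner medulla and thin limb list had summed intensities of 912 to 1084 for lean, 889 to 1167 for untreated and 572 to 1129 for treated arrays, with none at 0. The 7 thick ascending limb genes summed to 5979 to 6621, 6776 to 7528 and 5343 to 7071. The 10 proximal tubule genes, Slc34a1 and Lrp2 among them, were split on db/db+TSF replicate 2. Aqp1 (10.24), Slc3a1 (10.56) and Hnf4a (10.60) had their lowest value there, and Slc5a2 (11.15), Slc5a12 (11.43) and Slc4a4 (11.70) their highest. Whether the Aqp4 RNA came from principal cells alone was not tested. At the other end, db/db replicate 3, highest for Aqp2, was also highest for Slc14a2 (6.74) and Slc14a1 (6.27), urea transporters of the medulla, but not for the other 4 genes of that list, Cldn4 (6.84), Cldn3 (6.29), S100a4 (3.28) and Cryab (9.62). Slc14a1 was the 1 gene of that list with all db/db arrays (5.65 to 6.27) above all db/m arrays (4.68 to 5.44), against 10.4% of all genes. Of 6 tested urothelium genes, all 6 lay above 0 in db/db against db/m. Treated against untreated, 5 lay below 0 and 1 above, and 3 did not overlap, on the lower side (12.3% of all genes). In either comparison 0 passed the threshold. They summed to 75 to 106, 102 to 131 and 77 to 91 in lean, untreated and treated arrays. How much the depth of tissue taken contributes to the principal cell differences was not tested.

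**Figure D2:**
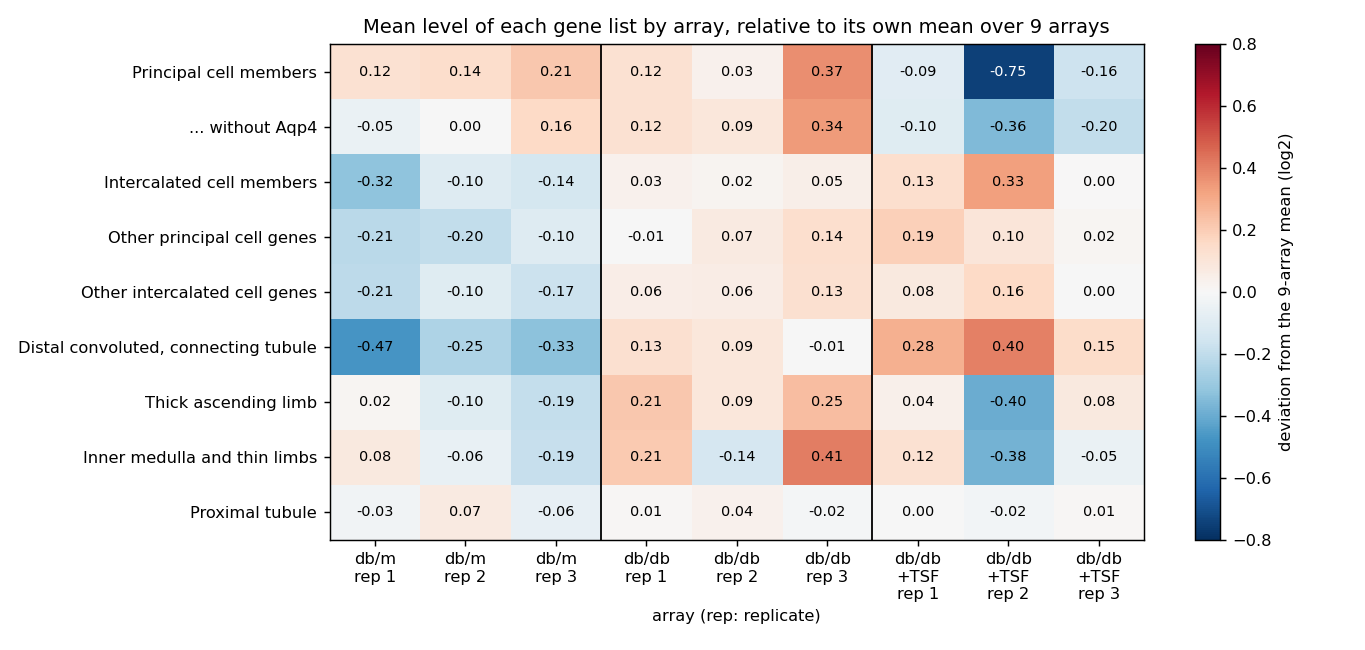
Mean log2 level of each gene list on each array as the deviation from its own mean over the 9 arrays (rows, lists; columns, arrays; colour and printed value, log2 units). On db/db+TSF replicate 2 the principal cell members lie at -0.75, or -0.36 without Aqp4, beside -0.40 for thick ascending limb and -0.38 for inner medulla genes, while the intercalated cell members lie at 0.33.

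Of the intercalated cell genes, Atp6v1b1, the kidney form of the B subunit of the proton pump, was the member whose db/db and db/m arrays did not overlap. It measured 8.68, 8.81 and 8.87 in db/m, 9.02, 9.18 and 9.00 in db/db, and 9.12, 9.20 and 8.99 in db/db+TSF. All 6 arrays of obese mice lay above all 3 lean arrays, and the untreated and treated groups overlapped. Db/db exceeded db/m by 0.28 (SE 0.10, 95% interval 0.07 to 0.49, limma adjusted p = 0.223) and db/db+TSF exceeded db/m by 0.31 (SE 0.10, limma adjusted p = 0.12). Between the treated and untreated groups the difference was 0.03, with a 95% interval of -0.18 to 0.25 (limma adjusted p = 0.925), and its sign turned, to -0.026, when arrays were scaled to the same median.

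Atp6v0d2, a subunit of the membrane part of the same pump, measured 7.75, 8.20 and 7.96 in db/m, 8.26, 8.19 and 8.28 in db/db, and 8.31, 8.67 and 8.18 in db/db+TSF. Its lowest array was db/m replicate 1 and its highest db/db+TSF replicate 2, and db/m replicate 2 lay inside the range of the db/db groups. The differences were 0.28 for db/db and 0.42 for db/db+TSF, each against db/m (SE 0.14, limma adjusted p = 0.411 and 0.149). Without db/m replicate 1 they were 0.17 and 0.31, and without db/db+TSF replicate 2 the second was 0.28 (adjusted p = 0.423).

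Slc26a4, pendrin of the type B cell, measured 7.08, 7.47 and 7.12 in db/m, 7.37, 7.56 and 7.33 in db/db, and 7.57, 7.98 and 7.50 in db/db+TSF. The treated arrays were all above the lean ones, with db/db between them and overlapping both. Db/db+TSF exceeded db/m by 0.46 (SE 0.15, 95% interval 0.14 to 0.79, limma adjusted p = 0.128), and by 0.31 without db/db+TSF replicate 2 (adjusted p = 0.366).

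Slc4a1, the bicarbonate exchanger of the type A cell and also the main membrane protein of red cells, measured 6.66, 6.67 and 6.92 in db/m, 7.10, 6.86 and 7.61 in db/db, and 6.99, 6.97 and 6.82 in db/db+TSF. Its highest array was db/db replicate 3. Db/db exceeded db/m by 0.44 (SE 0.17, 95% interval 0.08 to 0.80, limma adjusted p = 0.259), and by 0.23 (adjusted p = 0.534) without that array. Of 14 red cell genes fixed for this check 4 were tested, with summed intensities of 215 to 236 for lean, 224 to 430 for untreated and 193 to 225 for treated arrays and none at 0. The iron importer Slc25a37 measured 8.65 on db/db replicate 3 against 7.37 to 7.69 elsewhere, on the array that also had the high S100a8. The other 3 tested did not share this: Ank1 had its lowest value of the 9 arrays there (3.52), and Epb42 (3.09) and Rhd (3.56) lay within the range of the other arrays. Rhag, left out by the filter on dim genes, was at 3.29 there against 2.45 to 2.72 elsewhere. The remaining genes of that list were not analysed here, and the part of blood cells in the Slc4a1 value was not tested.

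Foxi1, the transcription factor that specifies intercalated cells, was the member of this cell type with the lowest p in treated against untreated mice. It measured 7.64, 7.78 and 7.86 in db/m, 7.83, 7.72 and 7.43 in db/db, and 8.10, 8.24 and 7.94 in db/db+TSF. The 3 treated arrays were above all 6 others, while db/m and db/db overlapped. The difference was 0.44 from db/db (SE 0.12, 95% interval 0.17 to 0.71, limma adjusted p = 0.284) and 0.34 from db/m (SE 0.12, limma adjusted p = 0.187). Without db/db replicate 3, the lowest array, the first was 0.32 (adjusted p = 0.367). Without db/db+TSF replicate 2, the highest array, it was 0.36 (adjusted p = 0.637).

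**Figure D3:**
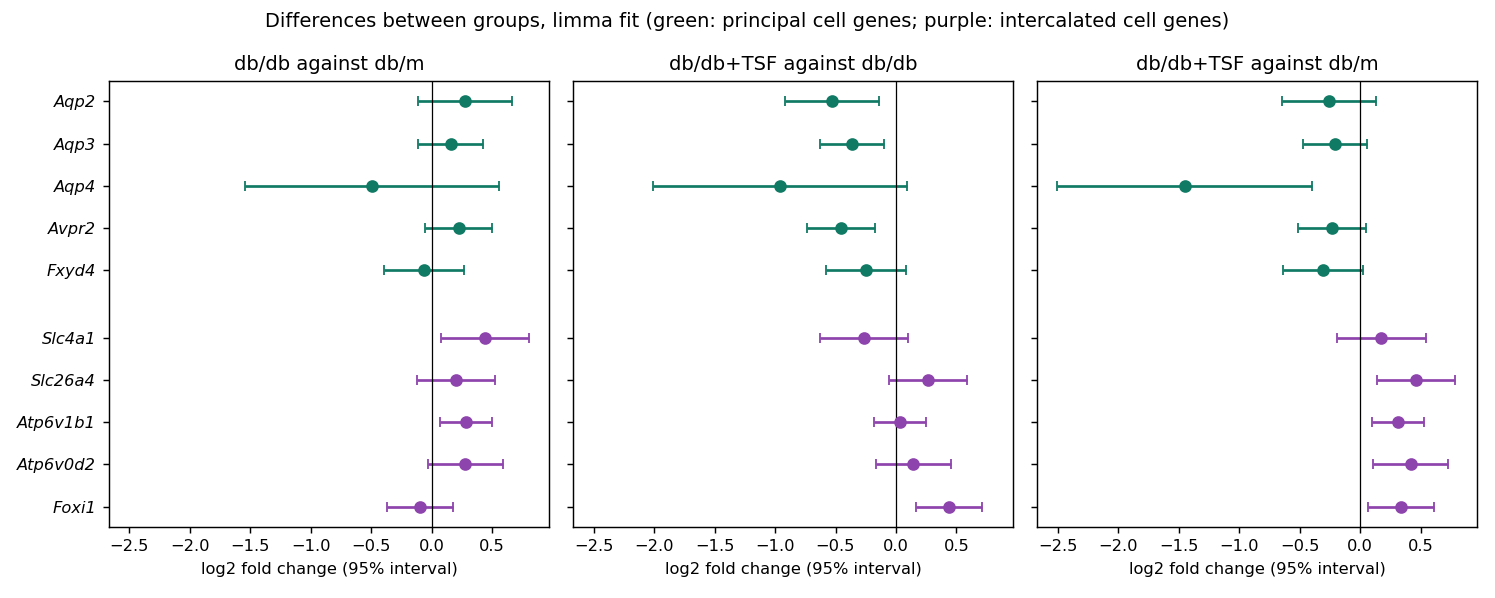
Log2 fold change of each member in the 3 comparisons, with 95% intervals of the limma fit that are not adjusted for the number of genes; green marks principal and purple intercalated cell genes. In db/db+TSF against db/m all 5 principal cell genes lie below 0 and all 5 intercalated cell genes above it, and 0 of 10 passed the adjusted threshold.

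Against db/m, the principal cell members of treated mice lay below 0 and the intercalated cell members above it, with 0 of 10 past the threshold. Against db/db, 5 of 5 principal cell members lay below 0, but 4 of 5 intercalated cell members lay above it, with Slc4a1 at -0.26 and Atp6v1b1 turning sign as given above. The mean of the 4 principal cell genes other than Aqp4 minus the mean of the 5 intercalated cell genes was -0.06, -0.23 and -0.03 in db/m, -0.24, -0.26 and -0.04 in db/db, and -0.56, -1.01 and -0.53 in db/db+TSF. The treated arrays are lower than the other 6, a description that carries no test. Array db/db+TSF replicate 2 alone held the lowest value of 4 of the 5 principal cell genes and the highest of 4 of the 5 intercalated cell genes; of all genes tested, 15.6% had their lowest and 10.9% their highest value there. Db/m replicate 1 had the lowest value of 4 of the 5 intercalated cell genes and of 15.1% of all genes tested.

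Other genes of the same cells did not all share these orders. Of 10 other principal cell genes, 10 lay above 0 in db/db against db/m (median 0.20) with 0 past the threshold and 4 at an unadjusted p under 0.05, and 8 lay above 0 in db/db+TSF against db/db (median 0.03), where the principal cell members had a median of -0.45. Treated against lean, 10 of 10 lay above 0 and 1 rose: Scnn1a, the alpha subunit of the epithelial sodium channel, measured 8.53, 8.48 and 8.97 in db/m, 9.13, 9.08 and 9.38 in db/db, and 9.48, 9.29 and 9.27 in db/db+TSF (0.69, SE 0.14, limma adjusted p = 0.0267). Both db/db groups lay above the lean arrays. It no longer passed when db/m replicate 1 or 2, or any of the 3 db/db+TSF arrays, was left out (adjusted p 0.0683 to 0.0943). The beta subunit Scnn1b did not pass (0.48, adjusted p = 0.0802). Between treated and untreated mice the potassium channel Kcnj1 had a difference of -0.30 (adjusted p = 0.38) and the transcription factor Gata3 one of 0.17 (adjusted p = 0.52).

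Of 21 other intercalated cell genes, 19 lay above 0 in db/db against db/m (median 0.17) and 2 rose. Aqp6, an anion-conducting aquaporin inside type A cells, measured 7.86, 7.85 and 7.91 in db/m, 8.48, 8.29 and 8.64 in db/db, and 8.39, 8.23 and 8.20 in db/db+TSF (db/db against db/m 0.60, SE 0.10, limma adjusted p = 0.0247). Atp4a, the catalytic subunit of the gastric-type proton-potassium pump, measured 7.16, 7.23 and 7.61 in db/m, 7.93, 8.07 and 8.15 in db/db, and 7.98, 8.05 and 7.77 in db/db+TSF (0.72, SE 0.13, limma adjusted p = 0.0282). In both genes every array of obese mice was above every lean array. Aqp6 lost its call without any of the 3 db/m arrays or without db/db replicate 1 or 3 (adjusted p 0.061 to 0.0936), and Atp4a without db/m replicate 1 or 2 or any of the 3 db/db arrays (0.068 to 0.101).

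Against db/m, 19 of these 21 genes in db/db+TSF lay above 0 (median 0.24) and 1 rose, Atp4a again (0.60, limma adjusted p = 0.0325), which did not pass when db/m replicate 1 or 2, or any of the 3 db/db+TSF arrays, was left out (adjusted p 0.0566 to 0.122). The ammonia channel Rhcg did not pass (0.37, adjusted p = 0.0551). Between the treated and untreated groups 14 lay above 0 (median 0.04), 0 passed and 1 had an unadjusted p under 0.05, Slc26a7, a chloride-bicarbonate exchanger, at -0.64 (adjusted p = 0.415). Slc26a7 measured 5.05, 4.61 and 4.03 in db/m, 5.29, 4.78 and 5.24 in db/db, and 4.74, 3.86 and 4.78 in db/db+TSF. Its lowest array was db/db+TSF replicate 2, as for most thick ascending limb genes. Over all genes tested the medians were 0.0098 in db/db against db/m, -0.024 in db/db+TSF against db/db and -0.00019 in db/db+TSF against db/m.

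**Figure D4:**
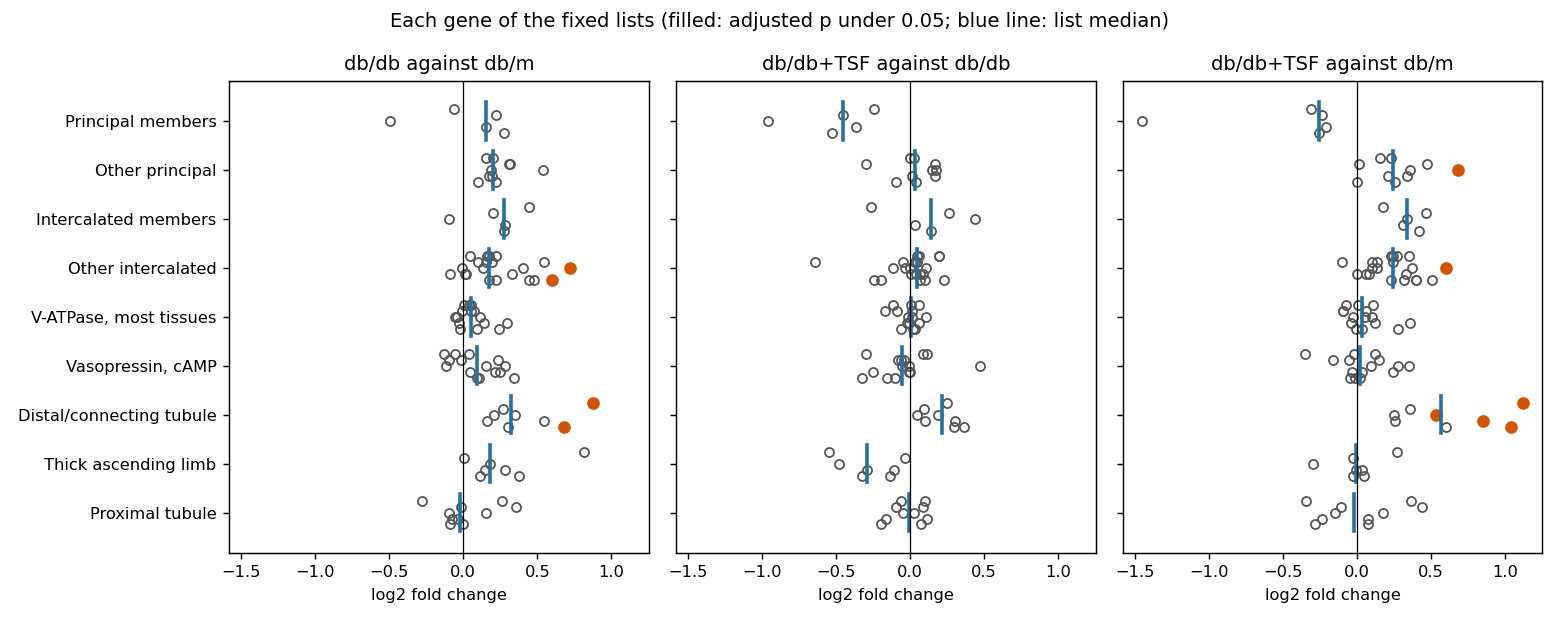
Log2 fold change of each tested gene in 9 lists and 3 comparisons (filled, adjusted p under 0.05; blue line, list median). Filled points occur among the other principal, other intercalated and distal tubule genes in comparisons with db/m, and none of the members is filled.

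No proton pump subunit of those found in most tissues passed the threshold. Of 15 tested, 10 lay above 0 in db/db against db/m (median 0.05), 0 passed and 1 had an unadjusted p under 0.05, Atp6ap2, the accessory subunit also called prorenin receptor (0.30, adjusted p = 0.302). Between treated and untreated mice their median was 0.0039 with 0 past the threshold and 0 at an unadjusted p under 0.05; the smallest p was that of Atp6v1g1 (-0.17, adjusted p = 0.466). Of 15 genes of vasopressin and cAMP signalling, 10 lay above 0 in db/db against db/m (median 0.09), with Akap7, an anchor of protein kinase A, at 0.25 (adjusted p = 0.261). Treated against untreated, 12 lay below 0 (median -0.05), and the lowest p values were those of Avp, the vasopressin gene itself and dim here at 4.12 to 4.90 (0.47, adjusted p = 0.284), and Prkar1a, a regulatory subunit of protein kinase A (-0.25, adjusted p = 0.389). In both comparisons 0 of the 15 passed, with 4 and 3 at an unadjusted p under 0.05.

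All 8 genes of the distal convoluted and connecting tubule, which leads into the collecting duct, lay above 0 in each comparison; 2 rose in db/db against db/m, 0 passed in db/db+TSF against db/db (1 at an unadjusted p under 0.05), and 4 rose in db/db+TSF against db/m, with medians of 0.33, 0.22 and 0.57. The 4 were the calcium binding protein Calb1 (1.04), the sodium-calcium exchanger Slc8a1 (1.12), the calcium channel Trpv5 (0.85) and Pvalb (0.53), with limma adjusted p of 0.00336, 0.00681, 0.0144 and 0.0215. Calb1 and Slc8a1 passed in all 9 fits that left out 1 array; Trpv5 lost its call without db/m replicate 1 or db/db+TSF replicate 2 (highest adjusted p 0.054) and Pvalb without db/m replicate 1 or 2 or any db/db+TSF array (highest 0.0766). Calb1 (0.68) and Slc8a1 (0.88) were also the 2 that rose in db/db against db/m (limma adjusted p = 0.0483 and 0.0366), and there each lost its call in 7 of the 9 such fits (highest 0.155 and 0.125). Thick ascending limb genes, 7 tested, lay above 0 in all 7 for db/db against db/m and below 0 in all 7 for db/db+TSF against db/db, with 0 past the threshold in either and 2 and 3 at an unadjusted p under 0.05.

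To see which genes varied most like a member over the 9 arrays, each gene was centred on its mean and the root mean square difference of the profiles was taken. Genes with model or clone names were left out of the ranking. For Atp6v1b1, whose own profile had a root mean square of 0.16, the closest were Myo19 (0.04), Kalrn (0.04), Slc12a3 (0.05), Sema3b (0.05) and Pdxk (0.05). Slc12a3, the thiazide-sensitive transporter of the distal convoluted tubule, measured 10.63, 10.89 and 10.93 in db/m, 11.01, 11.20 and 11.04 in db/db, and 11.19, 11.30 and 11.04 in db/db+TSF. Other members were further from Atp6v1b1, from 0.14 for Atp6v0d2 to 1.01 for Aqp4. For Aqp2, with a root mean square of 0.31, the closest were Ces1c, Gmds, Mus81, Ddx51 and Sting1 (0.13 to 0.15), and among the members Aqp3 (0.19) and Avpr2 (0.22). Ces1c was dim, at 2.54 to 3.39. With 17729 genes to compare over only 9 arrays, close profiles can be found by number alone. Likeness was ranked for Aqp2 and Atp6v1b1 only.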

How the data were processed

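RNA of mouse renal cortex was measured on 9 arrays in 3 groups. Each value is a linear intensity of a probe set on an array, as the authors deposited it. Per the submitters' processing notes, the software was Transcriptome Analysis Console and Affymetrix Expression Console; the sources used here do not give how background was corrected or arrays were normalized. The table lists 41345 probe sets, 190 of them controls. The platform annotation gave 23521 probe sets 1 symbol, 1814 several and 15820 none; probe sets with 1 symbol were used, the brightest per gene. Each member had 1 such probe set. Values were transformed as log2(value + 1), which understates changes of dim genes, and genes with a mean under the 30th percentile of the non-control probe sets (2.65) were left out. No detection calls were used.

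With limma 3.58.1 in R 4.3.3, all 9 arrays entered a fit of group means by lmFit and eBayes without trend or robust settings, with two-sided p; the script was tested on simulated data. Intervals and SE are those of the moderated fit. For arrays, their number limits the precision. No 2 arrays were copies: pairs shared 3 to 70 identical values. The named genes were the 10 members, the genes of the fixed lists past the threshold or with the smallest p (up to 2 per list and comparison), a few tissue markers and the 5 profiles closest to Aqp2 and to Atp6v1b1, model and clone names left out. The members, lists and tests were chosen with earlier results of these data known. Alternatives covered array scaling, pseudocount, filter, probe set choice, variance model, array weights, which groups were fitted, a block on replicate number, and omission of each array.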

Additional observations from a re-analysis of the deposited data

How the results depend on the processing

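The count of members past the threshold was 0 under all alternatives except 1: with the replicate number as a block, 1 member passed in db/db+TSF against db/m, Slc26a4 (0.46, adjusted p = 0.0423). Same-numbered arrays did not deviate together in all pairs (r from -0.08 to 0.15 across genes), and pairs of unlike number gave -0.16 to 0.16. These values show no pairing by number, but with 3 arrays per group they cannot exclude one. The block gave 137, 0 and 434 calls over all genes against 187, 0 and 556. Atp6v1b1 in db/db+TSF against db/db turned to -0.026 with arrays scaled to the same median. Leaving out 1 array gave it values from -0.016 to 0.089, and also turned the sign of Fxyd4 (-0.16 to 0.12) and Foxi1 (-0.18 to 0.016) in db/db against db/m. Over all member fold changes 298 of 300 values under other settings, and 266 of 270 without 1 array, kept their direction and side of the threshold. An array outside the groups compared does not enter the fold change. The block, the filter, the variance model and the choice of groups fitted leave the fold change unchanged. So does the probe set choice, since each member had 1 probe set. In those fits the direction could not turn, so the counts overstate how stable it is. Counts over all genes ran from 72 to 194 and from 216 to 563 without 1 array in the comparisons with db/m. Leaving out each array for the fixed lists was added after seeing the data. Dim genes near background are limited by the arrays' signal, which no detection call measures here.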
